A study of Mus musculus with 6 samples.

Results

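The 34 genes of glycolysis and the hypoxia response described here were matched by symbol in a deposited table of 24532 mouse genes, and all 34 were found. Each of the 34 had a read in every library, as did 14223 genes of the table, which were the genes tested. RNA was sequenced from primary articular chondrocytes of 5-day-old ICR mice, cultured in DMEM with 10% serum under 3% oxygen. The 3 *Sephs1* siRNA libraries came from cells given 50 nM siRNA against *Sephs1*, which encodes selenophosphate synthetase 1, for 12 h and then fresh medium for 48 h. The 3 control siRNA libraries came from cells given a negative control siRNA in the same way, and both groups were transfected 2 times. All 6 libraries came from cells at this oxygen level, and none from another level was compared. The methods call the libraries biological replicates but do not say which animals they came from, so the p-values below measure the spread between these libraries.

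The read totals ran from 62316889 to 71080135 in the *Sephs1* siRNA libraries and from 58214060 to 80887889 in the control libraries. *Sephs1* was at 36.1, 24.9 and 21.5 CPM (read counts scaled to library size and by TMM) with *Sephs1* siRNA and at 50.7, 44.7 and 44.7 CPM with control siRNA. The groups did not overlap. Its log2 fold change of -0.76 had an adjusted p of 0.392 in edgeR, which became 0.04 when the replicate number was a block. DESeq2, which had no block, gave it an adjusted p of 0.017. The cells carried chondrocyte markers, led by *Col2a1*, whereas 6 of 15 macrophage and leukocyte markers had 0 reads and none of the 15 exceeded 5.51 FPKM. The summed FPKM of 15 chondrocyte markers was 23236, 24599 and 20084 in *Sephs1* siRNA replicates 1, 2 and 3, against 24422, 26670 and 20797 in the control replicates. Replicate 3 was thus the lowest of each group, and each *Sephs1* siRNA sum was below the control sum of the same replicate number. Fibroblast markers reached 1834 FPKM (*Col1a1*), and the sums of the 13 ran from 5109 to 5968 FPKM with *Sephs1* siRNA and from 4937 to 6315 FPKM with control siRNA. Osteoblast markers reached 855 FPKM (*Spp1*). The sums of the 9 did not overlap, at 720 to 872 FPKM with *Sephs1* siRNA and 629 to 693 FPKM with control siRNA. *Spp1* alone made up most of these sums, at 710 to 855 FPKM with *Sephs1* siRNA and 607 to 677 FPKM with control siRNA. Of the 7 osteoblast markers tested, 3 had positive and 4 had negative log2 fold changes, with a median of -0.186. With the block, edgeR called *Dcn* higher and *Col9a1*, *Col1a2*, *Col5a1* and *Alpl* lower among the chondrocyte, fibroblast and osteoblast markers. *Alpl* had a log2 fold change of -1.27 and an adjusted p of 0.0183, against 0.392 without the block. The chondrocyte marker *Col9a1* had a log2 fold change of -0.227 and an adjusted p of 0.0446 with the block. The part of these markers in the values below was not tested. In bulk RNA, fewer cells of a type and less RNA per cell cannot be told apart.

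Glycolysis converts glucose to pyruvate in the cytosol, and cells short of oxygen reduce that pyruvate to lactate. Hypoxia-inducible factors (HIFs), which escape prolyl hydroxylation when oxygen is low, bind a short core sequence in DNA and raise transcription of most glycolytic genes together with genes of mitophagy, pH control and secretion. Cartilage has no blood vessels, and chondrocytes rely on glycolysis for most of their ATP.

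The upstream bases of 6 of these genes are shown because they carry the HIF core sequence in different number and because 3 of the genes (*Ddit4*, *Adm* and *Ero1l*) were higher with *Sephs1* siRNA by at least 1 of the tests below, while *Ldha*, *Pgk1* and *Bnip3* were not by any. Each sequence is the 250 bases before an annotated start, from RefSeq on GRCm38.p6, 5′ to 3′ in the direction of the gene. Capitals mark ACGTG or GCGTG on either strand, so that CACGT and CACGC are also capitals, and CACGTG holds 2 overlapping matches.
Ddit4: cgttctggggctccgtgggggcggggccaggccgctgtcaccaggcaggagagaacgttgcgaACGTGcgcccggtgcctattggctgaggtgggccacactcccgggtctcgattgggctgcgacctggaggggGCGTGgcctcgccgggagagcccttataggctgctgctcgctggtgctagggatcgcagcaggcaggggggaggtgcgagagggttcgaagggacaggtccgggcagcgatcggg
Adm: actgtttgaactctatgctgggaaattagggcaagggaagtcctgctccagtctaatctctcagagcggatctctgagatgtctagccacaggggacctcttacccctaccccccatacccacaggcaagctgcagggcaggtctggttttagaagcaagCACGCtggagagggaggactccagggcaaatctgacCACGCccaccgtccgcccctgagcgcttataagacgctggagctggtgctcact
Ero1l: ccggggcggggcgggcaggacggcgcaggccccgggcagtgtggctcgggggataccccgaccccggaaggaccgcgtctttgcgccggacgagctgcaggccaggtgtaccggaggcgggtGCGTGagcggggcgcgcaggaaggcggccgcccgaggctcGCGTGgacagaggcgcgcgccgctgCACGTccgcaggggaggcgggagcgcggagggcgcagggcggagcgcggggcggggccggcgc
Ldha: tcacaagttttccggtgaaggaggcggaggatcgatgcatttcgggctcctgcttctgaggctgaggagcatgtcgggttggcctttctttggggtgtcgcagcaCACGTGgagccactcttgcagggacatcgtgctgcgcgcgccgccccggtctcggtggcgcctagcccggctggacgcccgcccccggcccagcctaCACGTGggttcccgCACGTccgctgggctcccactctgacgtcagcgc
Pgk1: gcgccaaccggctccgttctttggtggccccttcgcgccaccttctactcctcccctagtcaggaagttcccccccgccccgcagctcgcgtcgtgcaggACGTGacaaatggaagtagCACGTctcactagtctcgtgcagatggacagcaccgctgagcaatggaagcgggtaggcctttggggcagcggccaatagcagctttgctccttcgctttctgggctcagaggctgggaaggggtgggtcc
Bnip3: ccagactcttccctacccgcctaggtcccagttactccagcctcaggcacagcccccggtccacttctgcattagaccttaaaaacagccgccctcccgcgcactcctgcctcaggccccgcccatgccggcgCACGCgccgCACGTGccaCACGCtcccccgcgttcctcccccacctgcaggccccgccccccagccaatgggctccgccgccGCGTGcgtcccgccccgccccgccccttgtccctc
The *Ddit4* window lies at chr10:59951771-59952020 on the minus strand and holds 2 matches, at 187 and 115 bases before the start. That of *Adm* lies at chr7:110627407-110627656 on the plus strand and holds 2 matches, at 90 and 54 bases. The *Ero1l* window, at chr14:45318573-45318822 on the minus strand, holds 3 matches. Of 2 annotated *Ldha* starts, the one shown has its window at chr7:46845554-46845803 on the plus strand and holds 5 matches. *Pgk1* has 2 matches at chrX:106186850-106187099 on the plus strand, and *Bnip3* has 5 at chr7:138909507-138909756 on the minus strand. Windows were found for 31 of the 34 genes, and none for *Slc2a3*, *Bnip3l* and *Ndrg1*. Of their 48 windows, 36 (75.0%) held a match, against 54.6% of 14128 windows of all genes tested and 38.6% of all 32851 windows. Windows of the same gene can overlap, as in *Aldoa*, *Eno1* and *Pfkm*, so a match can be counted more than once. A share by gene was not computed for the background. The median log2 fold change was 0.032 over the 27 genes with a match and 0.06 over the 4 genes without one. A match is a string of letters and not a binding site.

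Glycolytic transcripts were among the most abundant of these chondrocytes. Of the 34 genes, 7 ranked among the 100 highest by mean FPKM (the authors' values, scaled to transcript length and library size, so that genes of different length can be compared), and all 7 encode glycolytic enzymes. Mean FPKM was above 1000 for 3 genes, above 100 for 14, from 10 to 100 for 15 and below 10 for 5, so the highest was 1006-fold over the lowest. Together the 34 genes took 1.6%, 1.54% and 1.78% of the reads with *Sephs1* siRNA, against 1.55%, 1.44% and 1.59% with control siRNA. These shares are not scaled by TMM. In CPM the sums were 15859, 15318 and 16951 with *Sephs1* siRNA, against 16122, 14811 and 15763 with control siRNA, so replicate 1 went the other way.

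**Figure D1:**
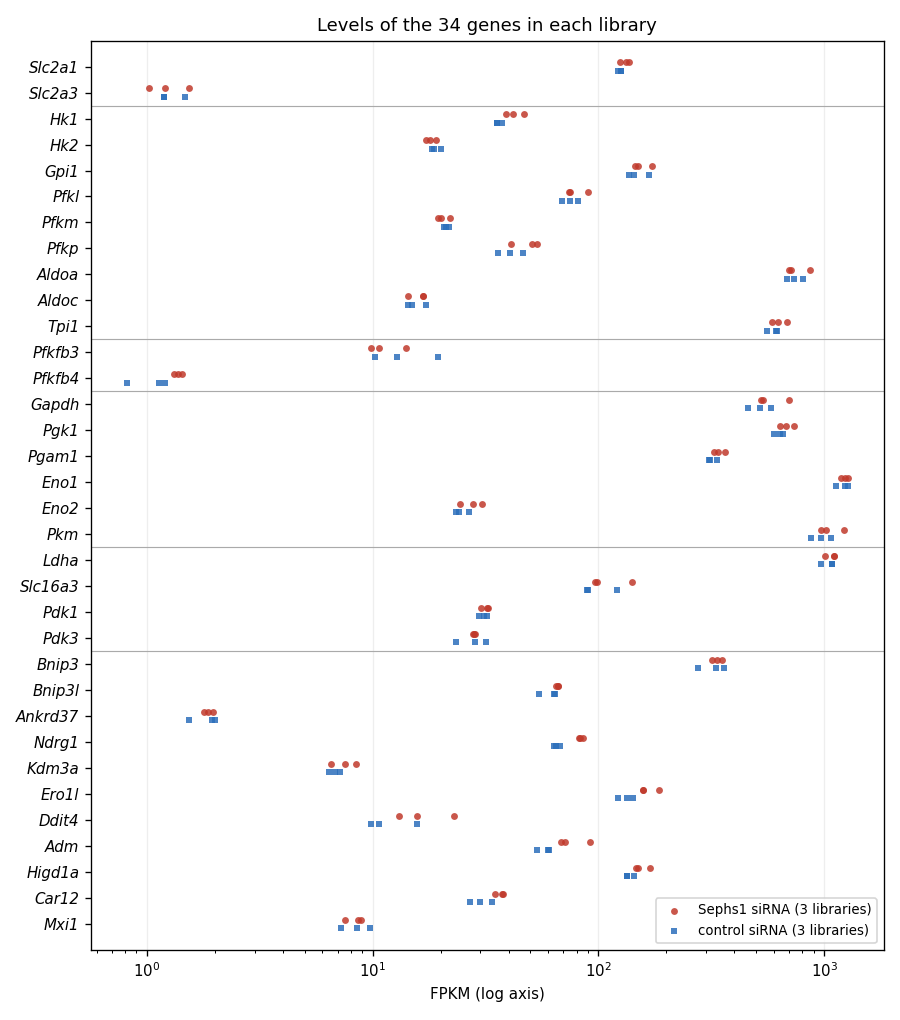
FPKM of the 34 genes (log axis) in each library, with *Sephs1* siRNA libraries as red circles above and control siRNA libraries as blue squares, and grey lines between the steps of the pathway. *Eno1*, *Ldha* and *Pkm* averaged above 1000 FPKM, whereas *Slc2a3*, *Pfkfb4* and *Ankrd37* stayed near 1 to 2 FPKM.

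*Eno1*, the main enolase, was the highest of the 34 genes, at 1271, 1181 and 1241 FPKM in the *Sephs1* siRNA libraries and 1230, 1123 and 1269 FPKM in the control libraries. *Ldha*, the lactate dehydrogenase subunit that favours lactate formation, was at 1105, 1011 and 1106 FPKM with *Sephs1* siRNA and 1086, 965 and 1083 FPKM with control siRNA. *Pkm*, a pyruvate kinase, was at 1014, 970 and 1224 FPKM with *Sephs1* siRNA and 963, 871 and 1073 FPKM with control siRNA. In each of these genes the groups overlapped and replicate 2 was the lowest library of its group. The aldolase gene *Aldoa* was at 710, 695 and 861 FPKM with *Sephs1* siRNA, against 732, 685 and 809 FPKM with control siRNA. *Pgk1*, which makes the first ATP of the pathway's lower arm, was at 677, 640 and 733 FPKM with *Sephs1* siRNA, against 638, 602 and 657 FPKM with control siRNA. The groups of both overlapped as well. The log2 fold changes of these 5 genes, all from edgeR, lay between -0.03 and 0.08, and their 95% intervals lay within ±0.5. A near-identical retrotransposed copy, *Eno1b*, was counted separately at 592 to 681 CPM, so the reads of *Eno1* may be split between them.

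None of the 34 genes was called at an adjusted p under 0.05 by edgeR, in either direction, over a background of 0.0141% of the genes tested. At an unadjusted p under 0.05, 4 of the 34 were higher (*Ndrg1*, *Adm*, *Ero1l* and *Hk1*), where 4.98% of all genes were, and none was lower, where 3.63% of all genes were. DESeq2 called 1 of the 34 higher (*Ndrg1*, adjusted p = 0.00133), over a background of 1.05%. In 5 genes (*Hk1*, *Pfkfb4*, *Ndrg1*, *Ero1l* and *Adm*) every *Sephs1* siRNA library was above every control library in CPM, over a background of 7.8% of genes, and in none was every one below, over a background of 7.09%. Libraries that share a replicate number also shared their deviations from the group means. With that number as a block, edgeR called 2 of the 34 higher (*Ndrg1* and *Ddit4*), over a background of 0.83%, and none lower, over a background of 0.816%. Without replicate 1 or without replicate 2, no member was called in that fit, and without replicate 3 the same 2 were. The median log2 fold change of the 34 genes was 0.036, against 0.009 over all genes tested, and the medians within pairs 1, 2 and 3 were -0.049, 0.031 and 0.154. On log2(FPKM + 1), tested with limma, 6 of the 34 passed an unadjusted p under 0.05, each of them higher, but on that scale 78.0% of all such calls were higher, against 57.8% in edgeR.

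**Figure D2:**
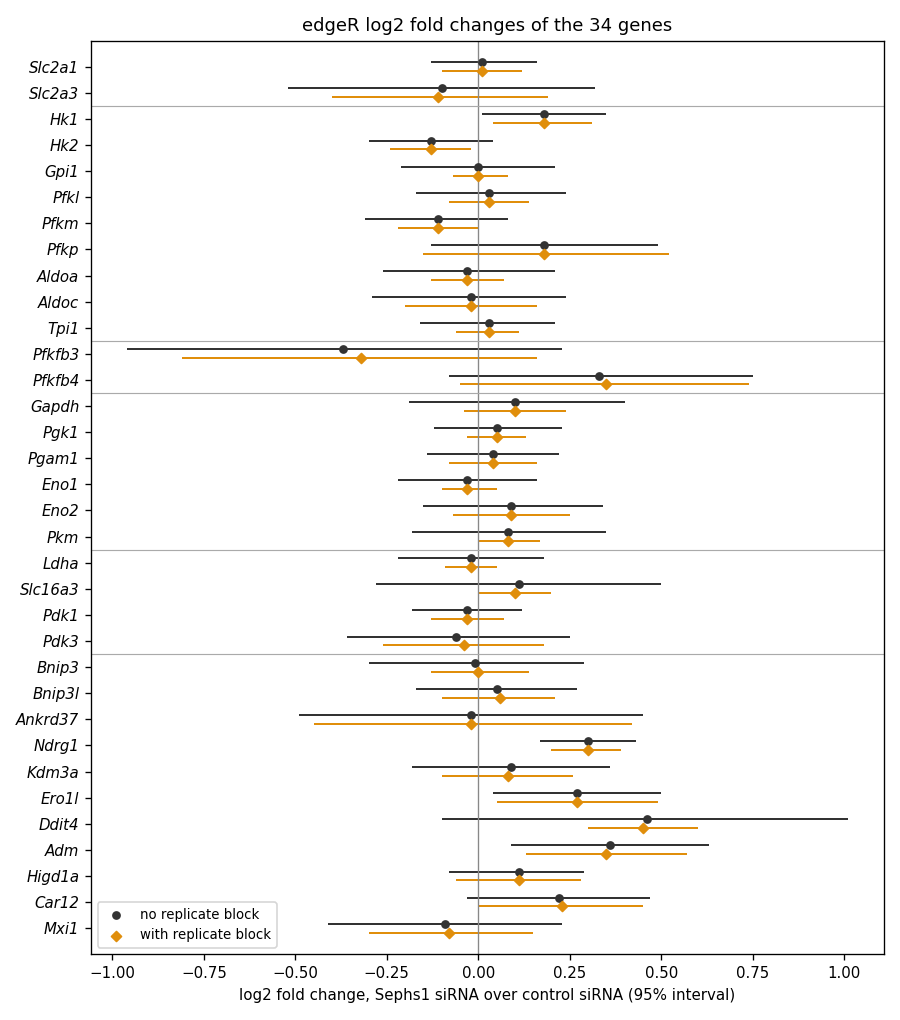
Log2 fold change of each of the 34 genes, *Sephs1* siRNA over control siRNA, from edgeR with 95% intervals, without (black circles) and with (orange diamonds) the replicate number as a block. The intervals of 29 of the 34 genes without the block lie within ±0.5, and those of *Ndrg1*, *Adm*, *Ero1l* and *Hk1* lie above 0.

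Over the 23 genes of glycolysis and pyruvate use the median log2 fold change was 0.011, and 13 values were positive and 10 negative. For 20 of these 23 the 95% interval lay within ±0.5 on the log2 scale, as it did for 7613 of the 14223 genes tested. The exceptions were *Slc2a3*, *Pfkfb3* and *Pfkfb4*.

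Of the glucose transporters, *Slc2a1*, the basal form, stood at 131 ± 6.14 FPKM with *Sephs1* siRNA and 124 ± 2.14 FPKM with control siRNA (SD, n = 3 each). *Slc2a3*, a transporter of higher affinity best known in neurons, was at 1.25 ± 0.265 FPKM with *Sephs1* siRNA and 1.29 ± 0.166 FPKM with control siRNA (SD, n = 3 each). *Slc2a1* made up 99.1% of the summed FPKM of this pair with *Sephs1* siRNA and 99.0% with control siRNA. The log2 fold change was 0.01 for *Slc2a1* (95% interval -0.13 to 0.16) and -0.10 for *Slc2a3* (-0.52 to 0.32).

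The hexokinases trap glucose in the cell by phosphorylating it, and both members of the list that encode them were measured. *Hk1*, the constitutive form, was at 163, 176 and 190 CPM in the *Sephs1* siRNA libraries and 156, 155 and 157 CPM in the control libraries. The groups did not overlap, although *Sephs1* siRNA replicate 1 lay close to the controls. Its log2 fold change was 0.18 (standard error 0.07, unadjusted p = 0.0449, adjusted p = 0.566 from edgeR). It no longer passed the unadjusted threshold when any single library other than *Sephs1* siRNA replicate 1 was left out. *Hk2*, the hypoxia-induced form, went the other way, at 96.0, 105 and 96.5 CPM with *Sephs1* siRNA and 107, 115 and 104 CPM with control siRNA, and the groups overlapped by 1 library. Its log2 fold change was -0.13 (unadjusted p = 0.11), and -0.13 with the block as well (unadjusted p = 0.0243, adjusted p = 0.148 from edgeR). As a share of their summed FPKM, *Hk1* made up 69.3%, 68.9% and 72.3% with *Sephs1* siRNA and 65.9%, 64.0% and 66.6% with control siRNA. This difference of 4.63 percentage points had an exact 2-sided permutation p = 0.1, the smallest that 3 against 3 libraries allow, and 0.75 after Benjamini-Hochberg adjustment over 10 isozyme shares.

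Of the phosphofructokinases, which commit the sugar to glycolysis, the liver-type gene *Pfkl* held 53.7 ± 2.17% of the summed FPKM with *Sephs1* siRNA and 54.7 ± 2.3% with control siRNA (SD, n = 3 each). The platelet-type gene *Pfkp* held 32.5 ± 2.7% with *Sephs1* siRNA and 29.8 ± 2.25% with control siRNA (SD, n = 3 each). The muscle-type gene *Pfkm* held 13.9 ± 2% with *Sephs1* siRNA and 15.5 ± 1.13% with control siRNA (SD, n = 3 each). No share separated the groups. In counts, *Pfkp* had the widest interval of these enzymes, with a log2 fold change of 0.18 (95% interval -0.13 to 0.49) and pair differences of -0.25, 0.44 and 0.34. *Pfkm* was lower in each replicate pair, by -0.06, -0.14 and -0.15 on the log2 scale, and had an adjusted p = 0.192 from edgeR with the block.

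*Gpi1*, the phosphoglucose isomerase, had a log2 fold change of 0.00 (95% interval -0.21 to 0.21) and *Tpi1*, the triose phosphate isomerase, 0.03 (-0.16 to 0.21). *Aldoa* made up 97.9% of the summed aldolase FPKM in both groups, beside *Aldoc*, the brain form, at 16.0 ± 1.4 FPKM with *Sephs1* siRNA and 15.6 ± 1.58 FPKM with control siRNA (SD, n = 3 each).

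The enzymes that set fructose 2,6-bisphosphate, the activator of phosphofructokinase, had the largest point estimates among the glycolytic genes, in opposite directions. *Pfkfb3* was at 49.0, 52.9 and 68.0 CPM with *Sephs1* siRNA and 53.2, 102 and 63.9 CPM with control siRNA. Control replicate 2 stood well above the other 5 libraries, which gave this gene the largest within-group SD of the 34 (0.384 on the log2 CPM scale). Its log2 fold change was -0.37 (95% interval -0.96 to 0.23), and it was -0.06 without control replicate 2. *Pfkfb4* was scarce, at 4.84, 4.68 and 4.32 CPM with *Sephs1* siRNA and 4.03, 2.88 and 4.09 CPM with control siRNA. Its groups did not overlap, yet the log2 fold change of 0.33 (95% interval -0.08 to 0.75) did not pass the test (unadjusted p = 0.0993).

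In the lower arm, the changes of *Gapdh*, *Pgam1* and the neuronal enolase gene *Eno2* were small beside the spread. *Gapdh*, which oxidizes glyceraldehyde 3-phosphate and often serves as a reference gene, was at 584 ± 97 FPKM with *Sephs1* siRNA and 521 ± 60.8 FPKM with control siRNA (SD, n = 3 each), with replicate 3 the highest of each group. Its log2 fold change was 0.10 (95% interval -0.19 to 0.40). The phosphoglycerate mutase gene *Pgam1* had a log2 fold change of 0.04 (-0.14 to 0.22) and *Eno2* of 0.09 (-0.15 to 0.34). *Eno1* provided 97.8% of the *Eno1* and *Eno2* FPKM with *Sephs1* siRNA and 98.0% with control siRNA.

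Of the genes that decide the fate of pyruvate, *Slc16a3*, the lactate exporter MCT4, was at 242, 247 and 339 CPM with *Sephs1* siRNA and 232, 235 and 301 CPM with control siRNA. Replicate 3 was high in both groups, and the groups overlapped. Within the pairs the difference was 0.06, 0.07 and 0.17 on the log2 scale, and the log2 fold change of 0.11 (95% interval -0.28 to 0.50) became 0.10 (0.00 to 0.20) with the block, with an adjusted p = 0.204 from edgeR. *Pdk1* and *Pdk3*, kinases that switch off pyruvate dehydrogenase, had log2 fold changes of -0.03 (95% interval -0.18 to 0.12) and -0.06 (-0.36 to 0.25). *Pdk1* held 52.9 ± 0.713% of their summed FPKM with *Sephs1* siRNA and 52.8 ± 4.46% with control siRNA (SD, n = 3 each).

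The 11 hypoxia-induced genes outside glycolysis stood somewhat higher with *Sephs1* siRNA than the glycolytic genes did. Their median log2 fold change was 0.109, with 8 positive and 3 negative values, and pairs 1, 2 and 3 gave medians of -0.023, 0.097 and 0.284. The difference between the 2 sets of genes was not tested. Of these 11 genes, 3 were higher at an unadjusted p under 0.05, where 4.98% of all genes were. With the block, 2 were called higher at an adjusted p, where 0.83% of all genes were. Without replicate 1 the blocked adjusted p from edgeR was 0.183 for *Ndrg1* and 0.114 for *Ddit4*. Without replicate 2 it was 0.127 for *Ndrg1* and 0.141 for *Ddit4*, so neither call was kept in these fits. Without replicate 3 it was 0.019 for *Ndrg1* and 0.0228 for *Ddit4*, and both calls were kept. The log2 fold changes were 0.292, 0.282 and 0.300 for *Ndrg1* and 0.482, 0.425 and 0.425 for *Ddit4*, in that order. Over all genes these fits called 16, 81 and 1187 genes, against 234 with every pair.

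*Ndrg1*, a gene induced by hypoxia and metal chelation that acts in membrane traffic and growth control, had the smallest p of the 34. It was at 240, 241 and 241 CPM in the *Sephs1* siRNA libraries and 199, 193 and 197 CPM in the control libraries. The groups were well apart and its within-group SD, 0.0162 on the log2 CPM scale, was small. The log2 fold change was 0.30 (standard error 0.05), a 1.23-fold rise. It was called by edgeR with the block (adjusted p = 0.0386) but not without it (unadjusted p = 0.0011, adjusted p = 0.357). DESeq2, which had no block, also called it (adjusted p = 0.00133). *Ndrg1* passed the unadjusted threshold in each of the 6 fits that left out 1 library, at log2 fold changes from 0.27 to 0.30. It lies on chromosome 15 of GRCm38.p6 from 66929318 to 66969641.

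*Ddit4*, or REDD1, restrains mTORC1 when oxygen is low and had the largest log2 fold change of the 34. It was at 22.3, 26.7 and 37.5 CPM with *Sephs1* siRNA and 17.5, 18.9 and 26.6 CPM with control siRNA. The groups overlapped because replicate 3 was high in both, while each *Sephs1* siRNA library exceeded the control library of the same number. Without the block the log2 fold change was 0.46 (95% interval -0.10 to 1.01, unadjusted p = 0.0924, adjusted p = 0.652 from edgeR). With the block it was 0.45 (0.30 to 0.60, adjusted p = 0.0392), and the pairs differed by 0.35, 0.50 and 0.50. Leaving out *Sephs1* siRNA replicate 3 gave 0.22 without the block, and leaving out control replicate 3 gave 0.66 (unadjusted p = 0.0256). The summed chondrocyte markers were lowest in replicate 3 of each group, where *Ddit4* was highest, and their part in this level was not tested. *Ddit4* lies on chromosome 10 from 59949675 to 59951770.

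*Adm* encodes adrenomedullin, a secreted vasodilator peptide. It was at 95.2, 98.8 and 124 CPM with *Sephs1* siRNA and 87.4, 77.0 and 83.8 CPM with control siRNA, and the groups did not overlap. The log2 fold change was 0.36 (standard error 0.11, unadjusted p = 0.0173), with an adjusted p of 0.486 in edgeR that became 0.0959 under the block. Without *Sephs1* siRNA replicate 3 it was 0.23 and without control replicate 2 it was 0.30, when the unadjusted p was 0.0729.

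*Ero1l*, listed by RefSeq as *Ero1a*, encodes the oxidase that reoxidizes protein disulfide isomerase in the endoplasmic reticulum and produces hydrogen peroxide. It was at 702, 705 and 795 CPM with *Sephs1* siRNA and 628, 659 and 544 CPM with control siRNA. The groups did not overlap, and the third pair differed most, by 0.55 on the log2 scale against 0.16 and 0.10 in pairs 1 and 2. Its log2 fold change was 0.27 (standard error 0.10, unadjusted p = 0.0296), with an adjusted p of 0.528 in edgeR that became 0.153 under the block. It did not pass the unadjusted threshold without control replicate 1, control replicate 3, *Sephs1* siRNA replicate 1 or *Sephs1* siRNA replicate 3, at log2 fold changes of 0.28, 0.19, 0.28 and 0.20. The *Adm* and *Ero1l* genes lie on chromosome 7 from 110627657 to 110629820 and on chromosome 14 from 45283087 to 45318572.

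**Figure D3:**
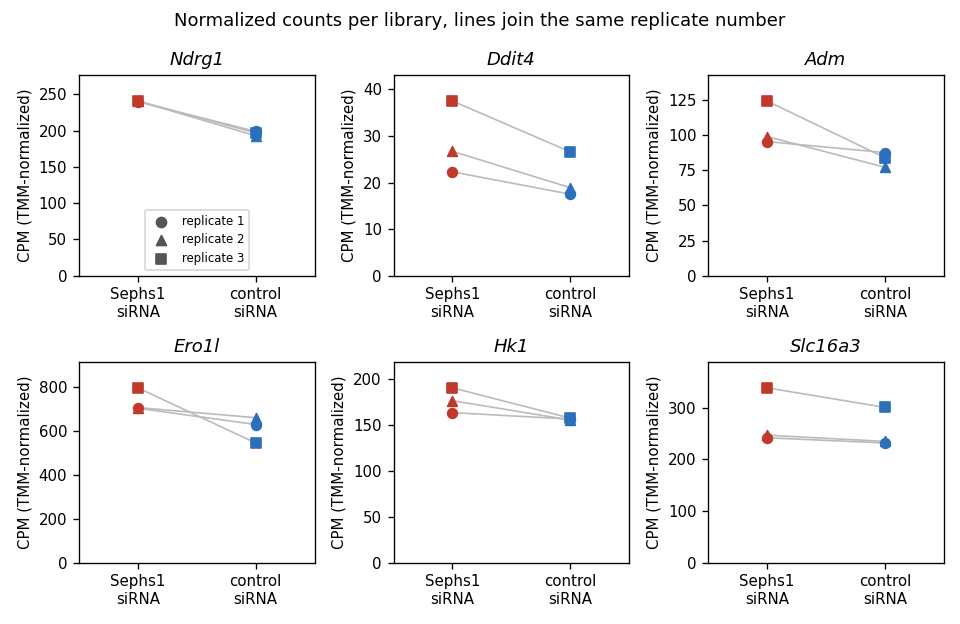
TMM-normalized CPM of 6 of the genes in each library, with *Sephs1* siRNA libraries (red) on the left and control siRNA libraries (blue) on the right of each panel, axes from 0, and grey lines joining libraries of the same replicate number. *Ndrg1* was nearly constant within each group, *Ddit4* and *Slc16a3* were high in replicate 3 of both groups, and in all 6 genes each line runs higher at its *Sephs1* siRNA end.

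None of the other hypoxia-induced genes was called at an adjusted p. *Car12*, a membrane carbonic anhydrase that regulates pH, was at 129, 139 and 135 CPM with *Sephs1* siRNA and 131, 115 and 100 CPM with control siRNA. The pairs differed by -0.02, 0.27 and 0.43 on the log2 scale, and its adjusted p of 0.631 in edgeR became 0.2 under the block. *Higd1a*, a mitochondrial survival factor, had a log2 fold change of 0.11 (95% interval -0.08 to 0.29) and *Kdm3a*, a histone H3 lysine demethylase, of 0.09 (-0.18 to 0.36). *Bnip3* and *Bnip3l*, receptors of mitophagy, bind autophagy proteins on mitochondria. *Bnip3* was at 334 ± 16.6 FPKM with *Sephs1* siRNA and 322 ± 42.6 FPKM with control siRNA, and *Bnip3l* at 65.7 ± 0.983 FPKM with *Sephs1* siRNA and 60.8 ± 5.34 FPKM with control siRNA (SD, n = 3 each). Their log2 fold changes were -0.01 (-0.30 to 0.29) and 0.05 (-0.17 to 0.27), and *Bnip3* held 83.6% of their summed FPKM with *Sephs1* siRNA and 84.1% with control siRNA. *Mxi1*, a MAX partner that opposes MYC, had a log2 fold change of -0.09 (-0.41 to 0.23). *Ankrd37* had one of -0.02 (-0.49 to 0.45) at 1.41 to 1.90 CPM. Its exons overlap *Ufsp2* and *Lrp2bp*, genes of the opposite strand at 75.9 and 1.28 CPM, with log2 fold changes of -0.06 and 0.57. Exons of *Aldoa*, *Gapdh*, *Hk1*, *Pfkm*, *Pfkp* and *Tpi1*, at means of 1159, 797, 166, 61.2, 183 and 997 CPM, also overlap genes of the opposite strand. In the same order, the overlapping genes were at 0.131, 6.78, 0.353, 39.3, 97.7 and 6.09 CPM. Since the use of strand in counting was not stated, the values of these 7 genes, with *Ankrd37*, are uncertain to that extent.

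Lists of the rest of the pathways were counted against the same backgrounds. At an unadjusted p under 0.05 these were 4.98% of all genes higher and 3.63% lower. Of 37 further glycolysis and pyruvate genes tested, 3 were higher and 2 lower at an unadjusted p under 0.05, with a median log2 fold change of -0.050. *Bsg*, the chaperone that brings the lactate exporter MCT4 to the membrane, was at 1951, 1962 and 2020 CPM with *Sephs1* siRNA and 1781, 1551 and 1547 CPM with control siRNA (unadjusted p = 0.0137). *Galm*, an aldose 1-epimerase, was the other higher gene above 1 CPM, at a log2 fold change of 0.45. *Pdk2* (-0.31) and the mitochondrial gluconeogenic enzyme *Pck2* (-0.20) were lower. None of these was called at an adjusted p by edgeR, with or without the block, and DESeq2 called *Galm* alone (adjusted p = 0.0239). None of 9 pentose phosphate pathway genes passed the unadjusted threshold, at a median of -0.089, and of 15 glycogen genes only *Stbd1* did, at -0.28.

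Among 17 HIF factors and regulators, *Hif1a* had a log2 fold change of -0.01 (95% interval -0.28 to 0.26). At an unadjusted p under 0.05, 3 other genes were higher, where 4.98% of all genes were, and 0 were lower, where 3.63% were. *Epas1*, which encodes HIF-2α, was at 28.7, 33.2 and 24.4 CPM with *Sephs1* siRNA and 16.3, 21.0 and 15.8 CPM with control siRNA. Its groups did not overlap, and its log2 fold change of 0.70 had an adjusted p of 0.392 in edgeR that became 0.0237 under the block. DESeq2, which had no block, gave it an adjusted p of 0.00981. The others were *Egln3*, an oxygen-sensing prolyl hydroxylase that is itself hypoxia-induced (0.38), and the coactivator gene *Crebbp* (0.17). Of 48 further HIF target genes, 6 were higher and 6 lower at an unadjusted p, against 4.98% and 3.63% of all genes, with a median of 0.022. At that threshold the higher ones included the transferrin receptor gene *Tfrc* (0.53), the carbonic anhydrase gene *Car9* (0.56) and *Selenbp1* (1.07). The lower ones included *Stc2* (-0.33), *Fgf21* (-0.56) and the transcriptional repressor gene *Bhlhe40* (-0.25). With the block, edgeR called 5 higher (*Tfrc*, *Car9*, *Selenbp1*, *Cxcl12* and *Trf*) and 1 lower (*Loxl2*), over backgrounds of 0.83% and 0.816%. DESeq2 called 3 higher (*Tfrc*, *Car9* and *Selenbp1*) and 2 lower (*Stc2* and *Fgf21*), and 150 higher and 65 lower of all 14223 genes. *Vegfa*, the angiogenic factor, had a log2 fold change of 0.13 (95% interval -0.25 to 0.51).

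**Figure D4:**
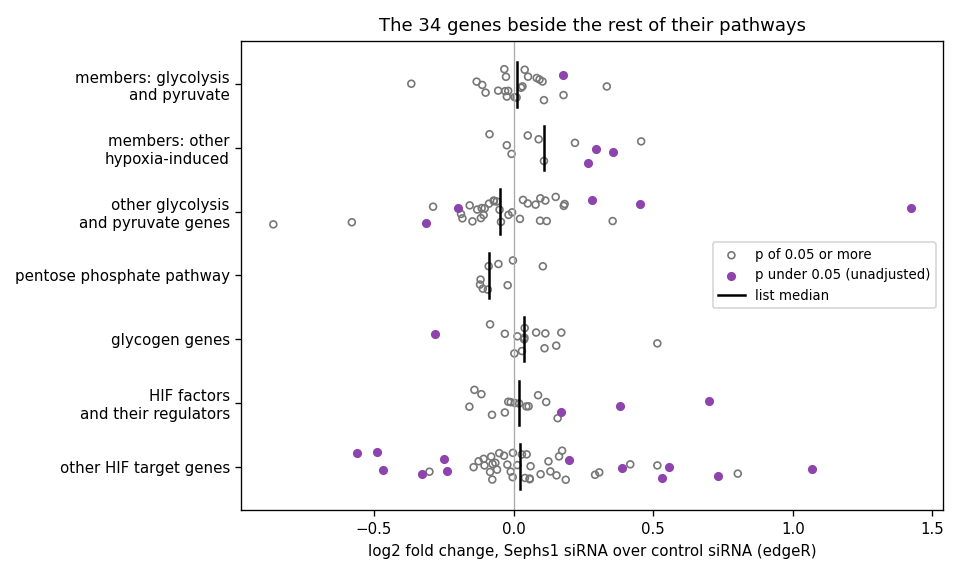
Log2 fold change (*Sephs1* siRNA over control siRNA, edgeR) of each tested gene in the 2 sets of the 34 genes and in 5 lists of the rest of their pathways, with filled points for an unadjusted p under 0.05, open points for the rest and a black bar at each median. The medians run from -0.089 to 0.109 and the filled points lie on both sides of 0 in the list of other HIF targets, 6 on each side.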

How the data were processed

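Polyadenylated RNA was sequenced from 3 libraries per group. Per the submitters' processing notes and the methods, the authors aligned reads to mm10 with HISAT2 2.1.0 and quantified genes with StringTie 1.3.4d. The deposited read counts are not normalized, and the deposited FPKM values are the authors' own, scaled to length and library size but not by TMM. Whether counting used strand was not given in the sources used here.

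The test of the counts was that of edgeR 4.0.16, run in R 4.3.3 (TMM, quasi-likelihood test, 2-sided, Benjamini-Hochberg adjustment) over 14223 genes with a read in every library, and checked on simulated data. The methods name no block, so none was used in the main test. The deviations from the group means correlated within replicate numbers 1, 2 and 3 at 0.499, 0.257 and 0.483. All exceed 0.1, and the numbers were therefore used as pairs, with blocked values given where they change a call. Alternatives were other size factors, other filters, the replicate block, each library left out, DESeq2 1.42.0, and limma 3.58.1 on FPKM, as log2 after adding 1 or 0.1. Isozyme shares of FPKM were compared by exact permutation.

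The 34 genes and all lists were chosen with earlier results of these data known. Genes given per library were those with an unadjusted p under 0.05 or an adjusted p under 0.05 with the block, the 5 highest by FPKM and the 3 most variable within groups. Of each list, up to 3 genes per direction with the smallest p under 0.05 and at least 1 CPM were named. Other genes given per library or by name were chosen after their values were seen. Coordinates and promoter windows came from RefSeq on GRCm38.p6. Of 17 chondrocyte markers, 15 matched by symbol.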

Additional observations from a re-analysis of the deposited data

How the results depend on the processing

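The number of the 34 genes called at an adjusted p was 0 with edgeR, 2 with the replicate block and 1 with DESeq2, and ran from 0 to 2 when libraries or pairs were left out. At an unadjusted p under 0.05, the 4 higher genes became 7 and the 0 lower genes became 2 with the replicate block, and leaving out libraries or pairs gave 2 to 8 higher and 0 to 5 lower genes. *Ndrg1* was higher at an unadjusted p under every alternative. The replicate block (log2 fold changes of 0.296 for *Ndrg1* and 0.449 for *Ddit4*) changed no other call of the 34 genes at an adjusted p. Single genes had 544 values under the alternatives. Of these, 476 stayed on the same side of 0 and of the threshold, 5 became calls, and 63, in 20 genes whose log2 fold change was at most 0.11 in size, changed sign without a call. No isozyme share moved by more than 1 SD. Over all genes, the block called 234, DESeq2 215 and edgeR 2 at an adjusted p. With 3 libraries per group, scarce genes such as *Pfkfb4*, *Slc2a3* and *Ankrd37* had the widest intervals, together with *Pfkfb3* and *Ddit4*.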
